A study of Mus musculus with 4 samples.

Results

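The solute carriers of amino acids, sugars, monocarboxylates and zinc were followed in the tissue around the femoral artery of mice after wire injury of the vessel. Members were all genes whose symbol begins with *Slc1a*, *Slc3a*, *Slc6a* (without the creatine transporter gene *Slc6a8*), *Slc7a*, *Slc36a*, *Slc38a*, *Slc43a*, *Slc2a*, *Slc5a*, *Slc16a*, *Slc30a* or *Slc39a*. They were 65 of the 12661 genes measured. Of these, 63 encode carriers, out of 119 carrier genes with these prefixes in the GENCODE annotation of mouse build NCBIM37, and the other two, *Slc2a4rg-ps* (a pseudogene) and *Slc7a6os* (a gene next to *Slc7a6*), share only the letters. By substrate family the carriers were 28 of the amino acid families, 11 of the sugar and sodium/glucose families, 8 of the monocarboxylate family and 16 of the zinc families.

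All mice were wild-type C57BL/6 females, ovariectomized and 11 weeks old. The outer tissues surrounding the femoral artery, which consist mainly of perivascular adipose tissue (PVAT), were taken 48 h after endovascular wire injury or after a sham operation, and poly(A) RNA was sequenced from 2 sham and 2 injury libraries. PVAT is the fat that wraps a blood vessel. The wire acts inside the artery, and the RNA came from the tissue outside it. Whether a library pooled several animals is not given in the sources used here, so the spread between replicates may be technical in part.

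Cells take up polar nutrients only through membrane carriers. Amino acid carriers of the SLC7 light chain group work as a pair with a shared heavy chain, and many of them exchange an amino acid inside the cell for one outside. The SLC2 family (GLUT) lets sugars pass down their gradient, the SLC16 family (MCT) moves lactate, pyruvate and related compounds, many of them together with a proton, and SLC30 and SLC39 proteins lower and raise the zinc concentration of the cytosol. In fat, insulin-dependent glucose uptake runs through GLUT4, and thermogenic fat both takes up glucose and exchanges lactate with the blood.

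The deposited values were signed decimals between -2.27 and 6.45, of which 50.5% were below 0. Their log base and reference point are not given in the sources used here, so every difference below (injury mean minus sham mean) is in deposited units and none is a fold change. Values of different genes cannot be ranked as levels, and the depth of the libraries is unknown. A gene was called when limma's moderated test over all 12661 genes gave a Benjamini-Hochberg adjusted p under 0.05. At 2 libraries a group, the smallest p that exact permutation of the labels allows is 0.333, so each call leans on the spread shared across genes.

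Of the 65 members, 8 were called, against 7.43% of all genes. The 5 called higher after injury were *Slc7a11*, *Slc7a8*, *Slc43a2*, *Slc16a1* and *Slc2a3*, where 3.76% of all genes were called higher. The 3 called lower were *Slc5a6*, *Slc36a4* and *Slc16a7*, where 3.67% of all genes were called lower. Both injury values lay above both sham values for 26 members, a pattern of 31.6% of all genes, and below them for 22, a pattern of 30.3% of all genes. The groups overlapped for 17 members. An unadjusted p under 0.05 was found for 27 members, against 29.5% of all genes, and a difference of at least 1 unit for 9, against 7.5% of all genes. The median difference over the members was 0.05, against 0.01 over all genes, while the median size of the difference was 0.38 against 0.25. Over the 63 carriers alone the median difference was -0.02, with 24 above, and the median size was again 0.38. The members thus lay on both sides of 0, and every family except zinc held calls in both directions.

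**Figure D1:**
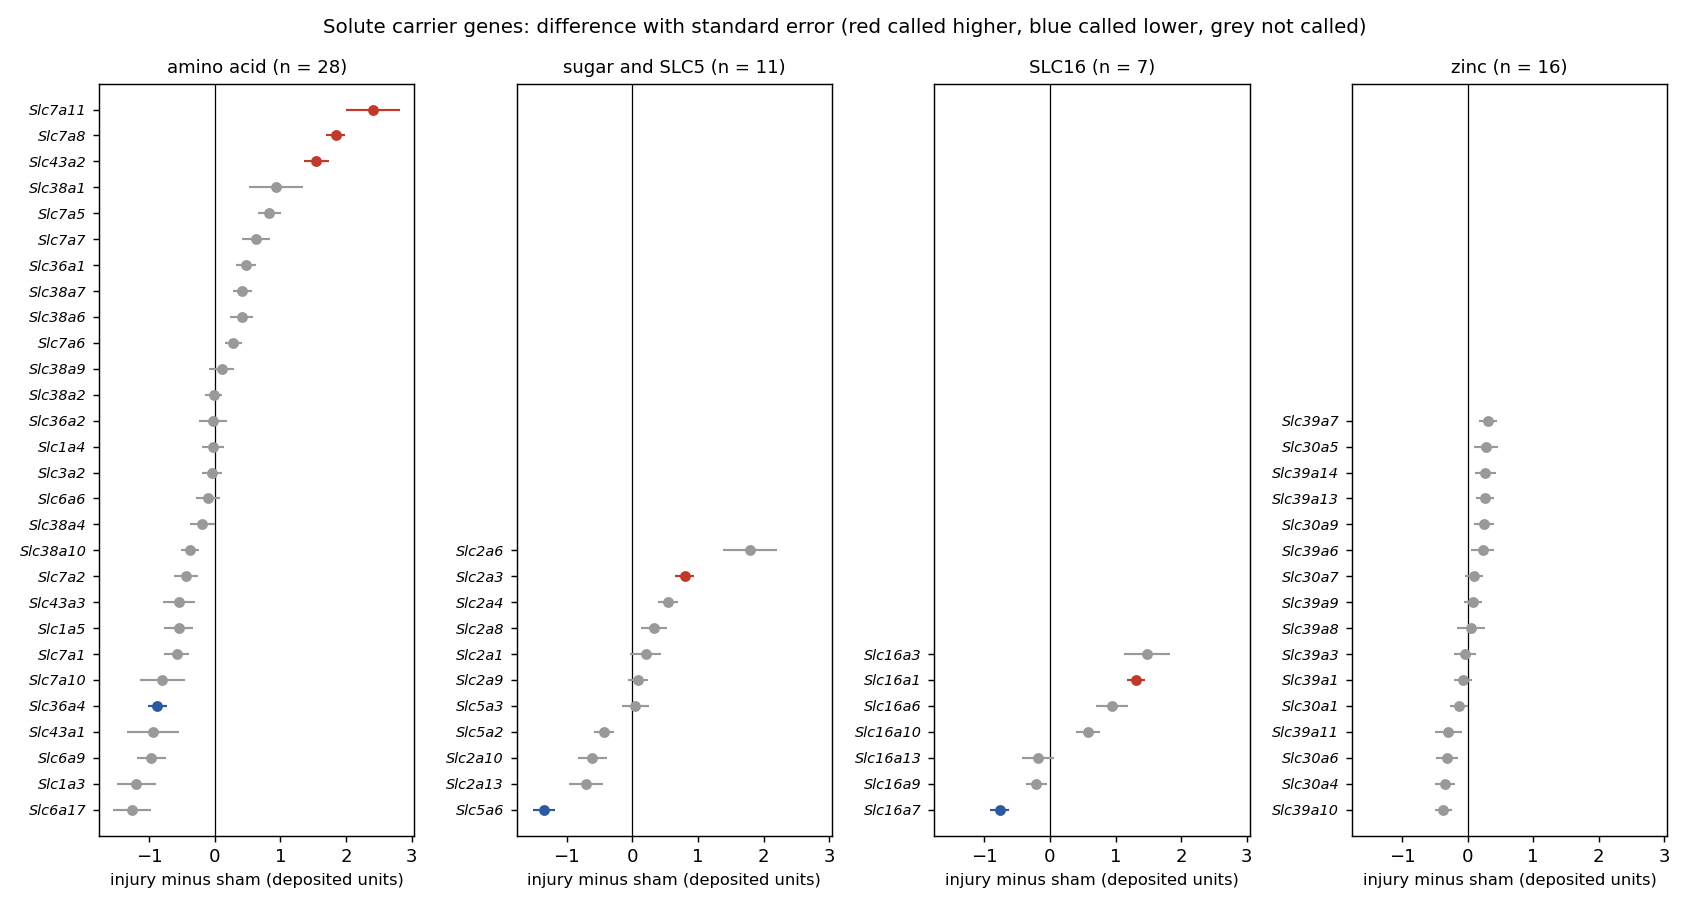
Difference between injury and sham (horizontal axis, deposited units) for 62 of the 63 carriers, grouped by substrate family, with bars for the standard error of the limma fit. Red points were called higher, blue points called lower and grey points not called. The amino acid family reached from -1.25 for *Slc6a17* to 2.41 for *Slc7a11*, and no zinc carrier was called.

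Markers of several cell types also moved with the groups. All 8 macrophage markers were higher in both injury libraries (4 called, list medians -1.20 and -1.02 in sham, 0.59 and -0.14 in injury), as were the 6 neutrophil markers tested (1 called, medians -1.40 and -0.97 in sham, 1.27 and 0.05 in injury). The 8 brown adipocyte markers were also higher in both injury libraries (7 called, medians 0.61 and 1.05 in sham, 2.01 and 2.01 in injury). All 5 smooth muscle markers were lower in both (4 called, medians 1.72 and 1.03 in sham, -1.55 and -0.21 in injury). The 5 endothelial markers had medians of 0.81 and 0.71 in sham and -0.16 and 0.05 in injury (2 called lower). The 5 fibroblast markers had medians of 0.28 and 0.03 in sham and -0.66 and -0.03 in injury (2 called lower). Among the latter *Pdgfra* was higher in both injury libraries, though not called, and *Pi16* overlapped. Over all genes 3.76% were called higher and 3.67% lower. The 9 general adipocyte markers had medians of 0.22 and 0.33 in sham and -0.12 and 0.28 in injury (1 called, *Plin1* lower). The 6 skeletal muscle markers tested had medians of 0.79 and -0.10 in sham and -0.18 and -0.27 in injury, with none called. Of these, 3 were lower in both injury libraries, 1 (*Pvalb*) was higher in both and 2 overlapped. The part of these shifts in the results below was not tested. In bulk tissue, fewer cells of a type and less RNA per cell cannot be told apart.

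Of the 28 amino acid carriers, 3 rose, 1 fell and 24 were not called. Both injury values lay above both sham values for 10 (31.6% of all genes) and below them for 11 (30.3% of all genes), and 7.43% of all genes were called. The median difference was -0.04 and the median size of the difference 0.55.

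The largest rise of any member was that of *Slc7a11* (NCBIM37 chromosome 3, 50168858 to 50247535, minus strand). It encodes xCT, which brings cystine into the cell in exchange for glutamate and so feeds glutathione synthesis. Its values were -1.34 and -0.95 in the sham libraries and 1.88 and 0.66 in the injury libraries. Every injury value lay above every sham value, and the 2 injury values were themselves 1.22 units apart. The difference was 2.41 (SE 0.41, adjusted p = 0.0346). It came to 1.81 when injury replicate 1 was left out and to 3.02 when injury replicate 2 was. *Slc7a11* is a textbook target of the ATF4 branch of the amino acid response, whose element in gene promoters is a C/EBP-ATF composite site. The 250 bases before its RefSeq start (GRCm38.p6 chr3:50443614-50443863, minus strand) are shown for that reason, with the letters TGATGNAA in capitals. Positions are counted back from the start, whose preceding base is -1. The letters began at -66 in the direction of the gene and at -47 on the other strand, where the printed strand reads as the reverse complement.

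Slc7a11: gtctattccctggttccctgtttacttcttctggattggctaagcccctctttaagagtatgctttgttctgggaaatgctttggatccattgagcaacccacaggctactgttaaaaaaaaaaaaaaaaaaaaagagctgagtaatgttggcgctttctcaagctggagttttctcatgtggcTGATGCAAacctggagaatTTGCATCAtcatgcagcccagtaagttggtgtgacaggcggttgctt

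The motif was found on either strand in 3.45% of all 32851 promoter windows of this length, and in windows of 3.91% of the 27025 genes they belong to. Among the 47 carriers with a promoter in the table it was found for *Slc7a11* and *Slc7a7*, in the latter for 2 of 5 annotated starts. A match describes the letters only.

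Regulators and other targets of that response lay on both sides of 0. Of the 16 genes listed for it, 6 had an unadjusted p under 0.05 (29.5% of all genes did) and 1 was called (against 7.43% of all genes), *Cebpb*, which rose by 1.17 (adjusted p = 0.0285) and encodes a C/EBP factor that acts in inflammation as well. *Atf4* differed by 0.31 (adjusted p = 0.221), *Ddit3* by 0.58 (adjusted p = 0.0851) and *Atf3* by 1.10 (adjusted p = 0.1099), each with both injury values above both sham values. The amino acid enzymes *Gpt2* and *Phgdh* differed by -1.03 (adjusted p = 0.0855) and -0.86 (adjusted p = 0.146). Their differences were -0.61 and -0.41 without injury replicate 1, and -1.45 and -1.32 without replicate 2. *Asns*, which makes asparagine, and *Trib3*, both standard readouts of the response, differed by 0.04 and -0.01. With injury replicate 1 left out these were 0.23 and 0.16, and with replicate 2 left out -0.15 and -0.18.

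*Slc7a8* (chromosome 14, 55341053 to 55400723, minus strand) encodes LAT2, an exchanger of small and large neutral amino acids. It read -0.81 and -0.62 in sham and 1.17 and 1.08 in injury. These were tight pairs far apart, and the difference of 1.84 (SE 0.14) had an adjusted p of 0.0285, the smallest of all genes and shared by several of them. Leaving out injury replicate 1 or 2 kept it past the threshold (adjusted p = 0.0442 and 0.0076), with the lone injury library assumed to vary like the sham pair. The call was lost without sham replicate 1 or 2 (adjusted p = 0.176 and 0.113).

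*Slc7a5* encodes LAT1, the main importer of leucine and other large neutral amino acids in growing cells. It read -0.95 and -0.68 in sham and 0.16 and -0.13 in injury, so the groups were separate, but the adjusted p of 0.0524 (difference 0.83, SE 0.18) missed the threshold. An annotated gene model, *Gm20388*, overlaps *Slc7a5* on the other strand. *Slc7a7*, the y+LAT1 carrier that exports cationic amino acids, differed by 0.63 (adjusted p = 0.134) and *Slc7a6*, its relative y+LAT2, by 0.29 (adjusted p = 0.228), each with both injury values above both sham values. *Slc7a7* differed by 0.34 with injury replicate 1 left out and by 0.92 (adjusted p = 0.0262) with replicate 2 left out, and *Oxa1l* overlaps it on the other strand.

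The remaining light chain was lower in both injury libraries and was not called. *Slc7a10* encodes Asc-1, a carrier of glycine, alanine and serine that is used as a surface marker of white adipocytes. It read 0.37 and 0.51 in sham and -0.87 and 0.16 in injury, a difference of -0.80 (SE 0.34, adjusted p = 0.190) that came mostly from injury replicate 1. It shrank to -0.28 when that library was left out, and was -1.32 (adjusted p = 0.0128) when injury replicate 2 was. *Slc7a10* overlaps *Lrp3* on the other strand. Of the 6 light chains, 5 had both injury values above both sham values (31.6% of all genes did) and 1 had them below (30.3% of all genes did). The median difference was 0.73, and 2 were called (7.43% of all genes were).

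The shared heavy chain did not follow them. *Slc3a2* encodes CD98, which carries all 6 light chains to the cell surface. It read 0.03 and 0.11 in sham and 0.14 and -0.10 in injury, and its difference of -0.04 (SE 0.15, adjusted p = 0.874) lay within the spread of either group. Without injury replicate 2 the difference was 0.08, and without injury replicate 1 it was -0.16, so its sign was not fixed by these libraries.

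**Figure D2:**
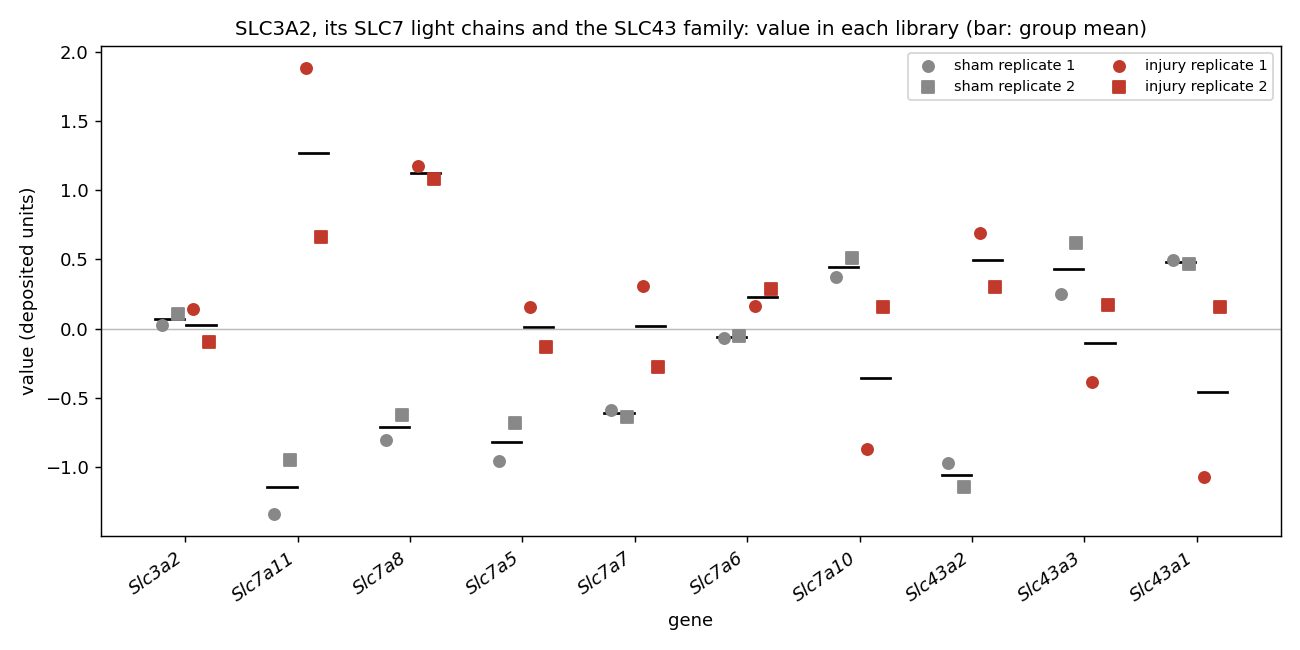
Value in each library (vertical axis, deposited units) of the light chains that pair with CD98, of their heavy chain *Slc3a2*, and of the SLC43 family, with bars for group means. The sham and injury points of *Slc7a11* and *Slc7a8* are widely apart, whereas those of *Slc3a2* fall between -0.10 and 0.14 in all 4 libraries.

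In the SLC43 family, which lets large neutral amino acids pass without exchange, only *Slc43a2* was called (7.43% of all genes were). *Slc43a2* (LAT4; chromosome 11, 75345196 to 75391077, plus strand) read -0.97 and -1.14 in sham and 0.69 and 0.30 in injury, and rose by 1.55 (SE 0.18, adjusted p = 0.0285). *Slc43a1* (LAT3) read 0.50 and 0.47 in sham and -1.07 and 0.16 in injury, a difference of -0.94 (SE 0.39, adjusted p = 0.185). Here the sham libraries were close together and the injury libraries 1.23 units apart. The difference came to -0.32 when injury replicate 1 was left out and to -1.55 (adjusted p = 0.0083) when injury replicate 2 was. *Slc43a3*, which carries purine nucleobases rather than amino acids, differed by -0.54 (adjusted p = 0.203).

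The glutamate and glycine carriers were lower in both injury libraries, and none was called (7.43% of all genes were). *Slc1a3* encodes EAAT1, which takes up glutamate with sodium. It read 0.79 and 0.91 in sham and -0.78 and 0.09 in injury, a difference of -1.19 (SE 0.30, adjusted p = 0.0687). The difference of *Slc1a3* was -0.76 with injury replicate 1 left out and -1.63 (adjusted p = 0.0083) with replicate 2 left out. *Slc6a9*, the glycine transporter GlyT1, read 0.67 and 0.32 in sham and -0.71 and -0.23 in injury (difference -0.97, SE 0.22, adjusted p = 0.0591), and *Ccdc24* and *B4galt2* overlap it on the other strand. *Slc6a17*, a neutral amino acid carrier of synaptic vesicles, read 0.35 and 1.12 in sham and -0.71 and -0.32 in injury. Its difference of -1.25 was the lowest of the amino acid carriers (SE 0.29, adjusted p = 0.0608). Separation of the groups was complete for these 3 genes, with both injury values below both sham values, a pattern of 30.3% of all genes. The groups overlapped for *Slc1a4* and *Slc6a6*, which share their prefixes. For the 3 genes the distance within a group was between 0.12 and 0.87 units. In the same tissue the 5 Schwann cell markers had medians of 0.18 and 0.16 in sham and -0.80 and -0.28 in injury (1 called lower), and their part in these values was not tested.

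The cationic carriers *Slc7a1* (CAT1) and *Slc7a2* (CAT2), which import arginine and lysine, had differences of -0.58 (adjusted p = 0.122) and -0.44 (adjusted p = 0.183), each with both injury values below both sham values. Of the neutral exchangers, *Slc1a5* (ASCT2, a glutamine carrier) read 0.45 and 0.41 in sham and -0.41 and 0.17 in injury (difference -0.55, adjusted p = 0.165). The difference of *Slc1a5* was -0.27 with injury replicate 1 left out and -0.84 (adjusted p = 0.0334) with replicate 2 left out. *Slc1a4* (ASCT1) differed by -0.03 with overlapping groups.

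None of the 7 SLC38 carriers, which move glutamine and other neutral amino acids, was called (7.43% of all genes were), and 2 had an unadjusted p under 0.05 (29.5% of all genes did). *Slc38a1* (SNAT1) read -1.09 and -0.14 in sham and 0.76 and -0.11 in injury. Its difference of 0.94 (SE 0.41, adjusted p = 0.202) was carried by sham replicate 1 and injury replicate 1, while the other two libraries were nearly level. With either of those 2 left out it was 0.46 and 0.50. *Slc38a2* (SNAT2), which amino acid shortage is known to induce, read -0.05 and -0.15 in sham and -0.14 and -0.09 in injury, a difference of -0.02 (SE 0.13, adjusted p = 0.946). The others ranged from -0.38 for *Slc38a10* to 0.42 for *Slc38a7*, and *Slc38a9*, the arginine-sensing carrier of the lysosome, differed by 0.10.

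Of the 3 SLC36 carriers 1 was called (7.43% of all genes were). *Slc36a4* (chromosome 9, 15514182 to 15546828, plus strand), a carrier with high affinity for proline and tryptophan, read 0.27 and 0.40 in sham and -0.43 and -0.64 in injury and fell by 0.87 (SE 0.15, adjusted p = 0.0365). The call ended after quantile normalization (adjusted p = 0.0516) and without injury replicate 1 (0.0587). *Slc36a1*, the lysosomal amino acid exporter PAT1, read 0.03 and -0.18 in sham and 0.50 and 0.30 in injury (difference 0.47, SE 0.16, adjusted p = 0.121). *Slc36a2* (PAT2), used as a surface marker of brown and beige adipocytes, read 0.46 and 0.48 in sham and 0.15 and 0.72 in injury. Its injury values lay on either side of the sham values (difference -0.03, SE 0.22, adjusted p = 0.939), in libraries where 7 of the 8 brown adipocyte markers were called higher.

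Promoters of *Slc36a1* (GRCm38.p6 chr11:55204090-55204339, plus strand) and *Slc36a4* (GRCm38.p6 chr9:15709488-15709737, plus strand) are set side by side. The pair was chosen with the signs of the 2 differences known, and only *Slc36a4* was called. Capitals mark the E-box letters CACGTG, which the lysosomal regulators TFEB and TFE3 are known to bind. They began at -31 in *Slc36a1* and were not in the window of *Slc36a4*. Only the letters were compared, and a link to the differences was not tested.

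Slc36a1: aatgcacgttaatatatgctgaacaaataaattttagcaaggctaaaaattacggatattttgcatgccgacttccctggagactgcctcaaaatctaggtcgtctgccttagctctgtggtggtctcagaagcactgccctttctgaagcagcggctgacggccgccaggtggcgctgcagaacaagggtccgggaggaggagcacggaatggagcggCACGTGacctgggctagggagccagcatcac
Slc36a4: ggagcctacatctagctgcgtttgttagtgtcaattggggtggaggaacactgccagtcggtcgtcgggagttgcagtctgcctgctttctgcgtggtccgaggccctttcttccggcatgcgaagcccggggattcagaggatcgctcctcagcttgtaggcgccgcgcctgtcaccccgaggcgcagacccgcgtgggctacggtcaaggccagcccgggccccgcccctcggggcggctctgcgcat

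CACGTG reads the same on both strands. It was found in 6.02% of all windows, for 6.86% of genes, and, among the 47 carriers in the table, in windows of 6 genes (*Slc36a1*, *Slc16a1*, *Slc30a5*, *Slc38a7*, *Slc39a8* and *Slc43a1*). Of these only *Slc16a1* was called.

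Of the 11 sugar and SLC5 carriers, 1 rose (3.76% of all genes were called higher), 1 fell (3.67% were called lower) and 9 were not called. Both injury values lay above both sham values for 3 (31.6% of all genes) and below for 4 (30.3% of all genes), with a median difference of 0.08. The glucose carriers *Slc2a3*, *Slc2a4* and *Slc2a6* were the separated genes on the upper side, and *Slc5a6*, a vitamin carrier, was the lowest.

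*Slc2a3* (chromosome 6, 122677827 to 122751658, minus strand) encodes GLUT3, a glucose carrier of high affinity found in neurons and in white blood cells. It read -0.35 and -0.56 in sham and 0.35 and 0.33 in injury and rose by 0.80 (SE 0.15, adjusted p = 0.0402), a call that ended without injury replicate 1 (adjusted p = 0.0898). *Slc2a6* encodes GLUT6, an intracellular hexose carrier of macrophages and other leukocytes. It read -1.51 and -0.85 in sham and 1.15 and 0.06 in injury. Its difference of 1.79 was larger than that of *Slc2a3*, but the libraries of each group were further apart (SE 0.41, adjusted p = 0.0595). The difference of *Slc2a6* was 1.24 without injury replicate 1, the library that also had the higher macrophage and neutrophil medians, and the part of those cells was not tested.

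The insulin-dependent GLUT4 and the general GLUT1 differed in pattern. *Slc2a4* (GLUT4) read 0.13 and 0.37 in sham and 0.86 and 0.72 in injury (difference 0.54, SE 0.15, adjusted p = 0.0910), with every injury value above every sham value. *Slc2a1* (GLUT1) read -0.02 and -0.01 in sham and 0.53 and -0.15 in injury, so its injury values lay on both sides of the sham values (difference 0.20, SE 0.24, adjusted p = 0.623). Without injury replicate 1 the difference of *Slc2a1* was -0.14. The models *Gm12867* and *Gm12868* overlap *Slc2a1* on the other strand.

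Among the other SLC2 and SLC5 members are carriers of other substrates. *Slc2a10* (GLUT10), which moves dehydroascorbate and is mutated in arterial tortuosity syndrome, read -0.08 and 0.39 in sham and -0.63 and -0.29 in injury (difference -0.61, SE 0.22, adjusted p = 0.140). *Slc2a13*, a proton-coupled carrier of myo-inositol, read 0.77 and 0.37 in sham and -0.44 and 0.18 in injury (difference -0.71, SE 0.26, adjusted p = 0.146). With injury replicate 1 left out it differed by -0.40, and with replicate 2 left out by -1.02 (adjusted p = 0.0443). The urate carrier *Slc2a9*, the intracellular *Slc2a8* and the sodium-coupled myo-inositol carrier *Slc5a3* differed by between 0.05 and 0.33 with overlapping groups. *Slc5a2*, the sodium/glucose cotransporter SGLT2 known from the kidney, differed by -0.43 (adjusted p = 0.140).

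*Slc5a6* (chromosome 5, 31338409 to 31351297, minus strand) encodes SMVT, the sodium-dependent carrier of biotin, pantothenate and lipoate. It read 0.70 and 0.72 in sham and -0.82 and -0.46 in injury and fell by 1.35 (SE 0.17, adjusted p = 0.0285), the lowest difference of all 65 members. It kept its call without injury replicate 1 (adjusted p = 0.0454) and without injury replicate 2 (adjusted p = 0.0086), where the sham pair supplied the spread, and lost it without sham replicate 1 or 2 (adjusted p = 0.176 and 0.116). *0610007C21Rik* overlaps it on the other strand. The libraries were made with a stranded kit, but whether reads were counted by strand is not given in the sources used here, so reads of overlapping genes may not be told apart.

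**Figure D3:**
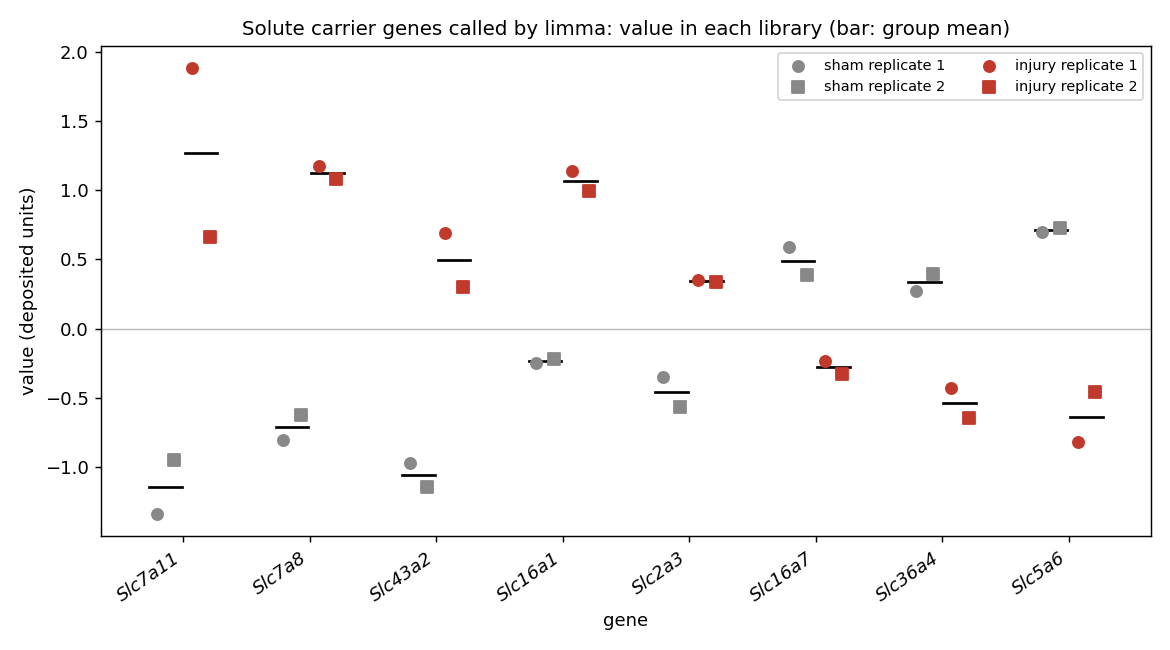
Value in each of the 4 libraries (vertical axis, deposited units) for the 8 called solute carrier genes, with bars for group means. Both injury points of *Slc7a11*, *Slc7a8*, *Slc43a2*, *Slc16a1* and *Slc2a3* lie above both sham points, and those of *Slc16a7*, *Slc36a4* and *Slc5a6* lie below them.

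The glucose handling list joins hexokinases and glycolytic regulators with genes of insulin signalling and GLUT4 traffic. Of 14 tested, 1 was called (7.43% of all genes were), *Hk3*, a hexokinase of myeloid cells, which read -1.09 and -1.16 in sham and 1.40 and 0.26 in injury (difference 1.96, SE 0.37, adjusted p = 0.0435). *Hk2*, the hexokinase of muscle and fat, differed by 1.05 (adjusted p = 0.0702). Both injury values lay above both sham values for 6 of the 14 (31.6% of all genes) and below for 1 (30.3% of all genes), and the median difference of the list was 0.08.

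In the monocarboxylate family the groups overlapped for 1 of 8 genes, *Slc16a13*, and over all genes for 4827 of 12661. The median size of the difference was 0.67. Both injury values lay above both sham values for 4 genes (31.6% of all genes) and below for 3 (30.3% of all genes), with 1 call in each direction (3.76% of all genes were called higher and 3.67% lower).

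*Slc16a1* (chromosome 3, 104442591 to 104462385, plus strand) encodes MCT1, which moves lactate, pyruvate and ketone bodies with a proton in either direction. It read -0.25 and -0.22 in sham and 1.14 and 0.997 in injury, and rose by 1.30 (SE 0.14, adjusted p = 0.0285). *Slc16a7* (chromosome 10, 124663520 to 124766019, minus strand) encodes MCT2, which has a higher affinity for the same substrates. It read 0.59 and 0.39 in sham and -0.23 and -0.33 in injury, and fell by 0.77 (SE 0.15, adjusted p = 0.0442). The 2 genes were thus called in opposite directions. The call of *Slc16a7* was lost without either injury library, with adjusted p = 0.0845 without replicate 1 and 0.0621 without replicate 2.

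*Slc16a3* encodes MCT4, the lactate exporter of glycolytic cells such as activated macrophages. It read -0.85 and -0.60 in sham and 1.277 and 0.22 in injury. The groups were separate, but the injury libraries were 1.06 units apart, and the difference of 1.48 (SE 0.35) had an adjusted p of 0.0641. With injury replicate 1 left out *Slc16a3* differed by 0.95, and with replicate 2 left out by 2.01 (adjusted p = 0.0076). *Csnk1d* overlaps *Slc16a3* on the other strand. *Slc16a6* (MCT7) read -0.58 and -0.47 in sham and 0.75 and 0.08 in injury (difference 0.94, SE 0.24, adjusted p = 0.0746). It differed by 0.61 with injury replicate 1 left out and by 1.277 (adjusted p = 0.0129) with replicate 2 left out, and *Amz2* and *Arsg* overlap it on the other strand.

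Other members of the family are named for their sequence and not for their substrate. *Slc16a10*, which moves aromatic amino acids, read -0.22 and 0.06 in sham and 0.66 and 0.34 in injury (difference 0.58, adjusted p = 0.111). *Slc16a9*, a carnitine carrier, read -0.01 and -0.30 in sham and -0.31 and -0.41 in injury (difference -0.21, adjusted p = 0.441).

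Lactate metabolism is often tied to hypoxia, and so the promoters of *Slc16a1* (GRCm38.p6 chr3:104638414-104638663, plus strand) and *Slc16a3* (GRCm38.p6 chr11:120948817-120949066, plus strand) were searched for the core letters of the hypoxia response element, ACGTG and GCGTG, and for the E-box CACGTG that Myc proteins are known to bind. Capitals mark them, and the ACGTG matches of *Slc16a1* lie inside its E-box.

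Slc16a1: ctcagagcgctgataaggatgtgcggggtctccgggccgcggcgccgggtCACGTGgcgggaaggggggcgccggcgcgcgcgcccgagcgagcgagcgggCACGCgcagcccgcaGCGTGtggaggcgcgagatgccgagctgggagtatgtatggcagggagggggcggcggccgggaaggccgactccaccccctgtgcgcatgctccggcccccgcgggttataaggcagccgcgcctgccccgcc
Slc16a3: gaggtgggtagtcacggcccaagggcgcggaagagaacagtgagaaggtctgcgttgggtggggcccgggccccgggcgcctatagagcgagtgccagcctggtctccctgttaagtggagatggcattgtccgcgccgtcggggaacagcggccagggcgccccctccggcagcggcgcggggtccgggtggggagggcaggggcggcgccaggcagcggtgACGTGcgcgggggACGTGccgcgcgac

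The *Slc16a1* window held CACGTG at -200, and GCGTG at -149 (other strand, printed as the reverse complement) and at -134. The *Slc16a3* window held ACGTG at -27 and -14. On either strand, ACGTG was found in 16.6% and GCGTG in 28.2% of all windows, and for 18.5% and 30.9% of the genes they belong to. Of the carriers in the table, 13 of 47 had ACGTG and 23 of 47 had GCGTG.

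The partners and enzymes of lactate handling were 11 genes, of which 1 rose (3.76% of all genes were called higher) and 1 fell (3.67% were called lower). *Ldhb*, the lactate dehydrogenase subunit typical of oxidative tissue, read 0.17 and 0.39 in sham and 1.21 and 1.21 in injury (difference 0.93, adjusted p = 0.0317). *Hcar1*, the lactate receptor of adipocytes that restrains lipolysis, read 0.54 and 0.56 in sham and -0.17 and -0.19 in injury (difference -0.72, adjusted p = 0.0394). *Bsg*, the surface partner of MCT1 and MCT4, differed by 0.14 (adjusted p = 0.518), *Emb*, a partner of MCT2, by 0.64 (adjusted p = 0.115), and *Ldha* by 0.26 (adjusted p = 0.303). For *Hif1a* the difference was -0.31 (adjusted p = 0.332), for *Pdk1* 0.46 (adjusted p = 0.133) and for *Pdk4*, the highest of the list, 1.25 (adjusted p = 0.132). In these libraries 7 of the 8 brown adipocyte markers were called higher, and their part in the lactate genes was not tested.

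**Figure D4:**
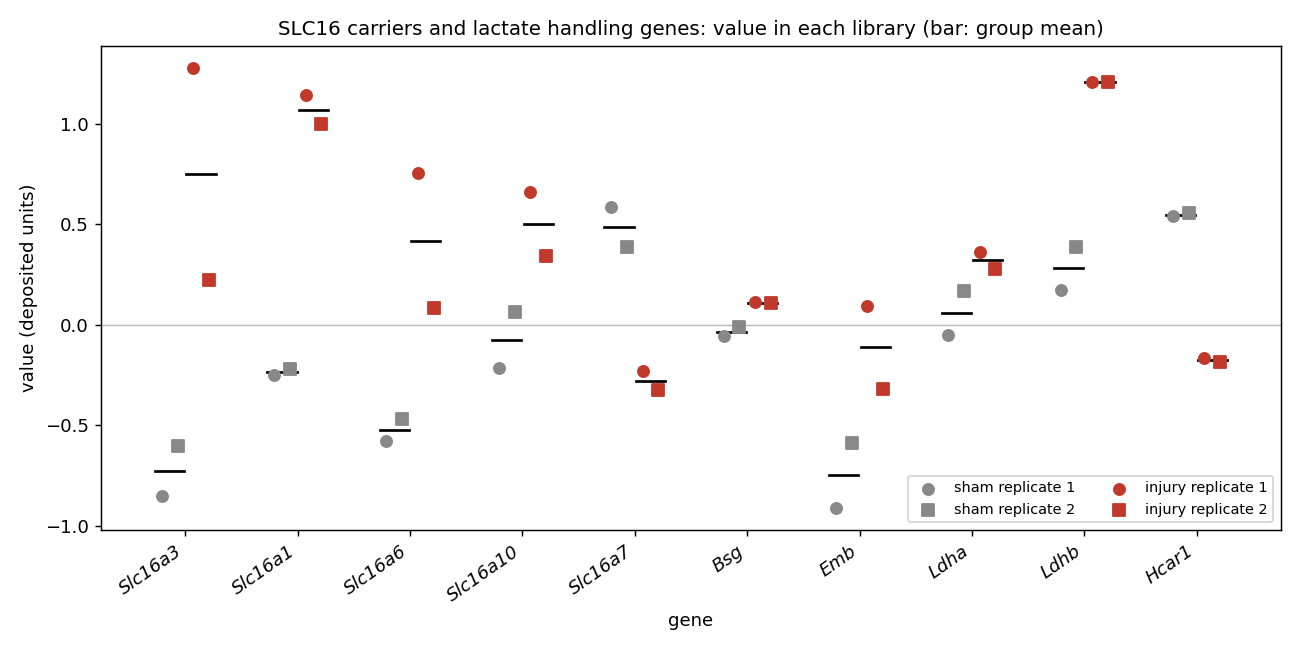
Value in each library (vertical axis, deposited units) of 5 monocarboxylate carriers and of 5 lactate handling genes, with bars for group means. *Slc16a1* and *Ldhb* have tight injury points above sham, *Slc16a7* and *Hcar1* have tight injury points below sham, and the injury points of *Slc16a3* lie 1.06 units apart.

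Of the 16 zinc carriers none was called by limma (7.43% of all genes were), and 1 had an unadjusted p under 0.05 (29.5% of all genes did), *Slc39a10*. The median difference was 0.07 and the median size of the difference 0.26, close to the 0.25 of all genes. Differences ran from -0.37 to 0.31, and the lowest adjusted p was 0.140. Both injury values lay above both sham values for 7 (31.6% of all genes) and below for 4 (30.3% of all genes).

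Among the SLC30 carriers, which move zinc out of the cytosol, *Slc30a1* (ZnT1, the exporter of the plasma membrane) read 0.32 and 0.42 in sham and 0.18 and 0.29 in injury (difference -0.13, SE 0.14, adjusted p = 0.563). *Slc30a5*, *Slc30a6* and *Slc30a7* load zinc into the early secretory pathway. *Slc30a5* read -0.39 and 0.01 in sham and 0.06 and 0.12 in injury (difference 0.28, adjusted p = 0.347), *Slc30a6* read 0.16 and -0.09 in sham and -0.18 and -0.39 in injury (difference -0.32, adjusted p = 0.265), and *Slc30a7* differed by 0.10. *Slc30a4*, a vesicular carrier, read 0.06 and 0.21 in sham and -0.30 and -0.12 in injury (difference -0.35, adjusted p = 0.192).

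Among the SLC39 carriers, which bring zinc into the cytosol, *Slc39a7* (ZIP7, which releases zinc from the endoplasmic reticulum) read -0.27 and -0.14 in sham and 0.12 and 0.09 in injury, the highest difference of the family (0.31, SE 0.14, adjusted p = 0.199). *Slc39a14*, a carrier of zinc, iron and manganese that inflammation is known to induce in the liver, read -0.27 and 0.03 in sham and 0.10 and 0.21 in injury (difference 0.27, SE 0.16, adjusted p = 0.325). Its close relative *Slc39a8* read -0.31 and 0.21 in sham and -0.02 and 0.03 in injury (difference 0.05, SE 0.21, adjusted p = 0.886), and its sham libraries were further apart than its groups. *Slc39a10*, a plasma membrane importer, read 0.25 and 0.23 in sham and -0.10 and -0.16 in injury (difference -0.37, SE 0.13, adjusted p = 0.140). The other SLC39 genes lay between -0.29 and 0.26.

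Of 7 zinc-binding and zinc response genes tested, none was called by limma (7.43% of all genes were) and 3 had an unadjusted p under 0.05 (29.5% of all genes did). The metallothioneins *Mt1* and *Mt2*, which rise when cytosolic zinc does, differed by 0.35 (adjusted p = 0.592) and 0.12 (adjusted p = 0.878). Both signs turned with the library used, to -0.15 for *Mt1* and -0.45 for *Mt2* when injury replicate 2 was left out. The calprotectin subunits *S100a8* and *S100a9*, which bind zinc and are made by neutrophils, differed by 1.86 and 1.88 (adjusted p = 0.0707 and 0.0711), with both injury values above both sham values.

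The injury libraries did not differ from sham by the same amount. Of the 26 members with both injury values above both sham values, replicate 1 was the further from sham in 20 (76.9%, against 62.5% of the 4003 genes with that pattern), and of the 22 below, in 15 (68.2%, against 64.2% of 3831 genes). The injury libraries lay further from each other than the nearer of them lay from the nearest sham value for 14 of the 26 (53.8%, against 44.5% of such genes) and 11 of the 22 (against 42.3% of such genes). Replicate 1 was the further from sham for all 5 genes called higher and for *Slc5a6*, and replicate 2 for *Slc36a4* and *Slc16a7*. The macrophage and neutrophil medians were higher in injury replicate 1 too.

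**Figure D5:**
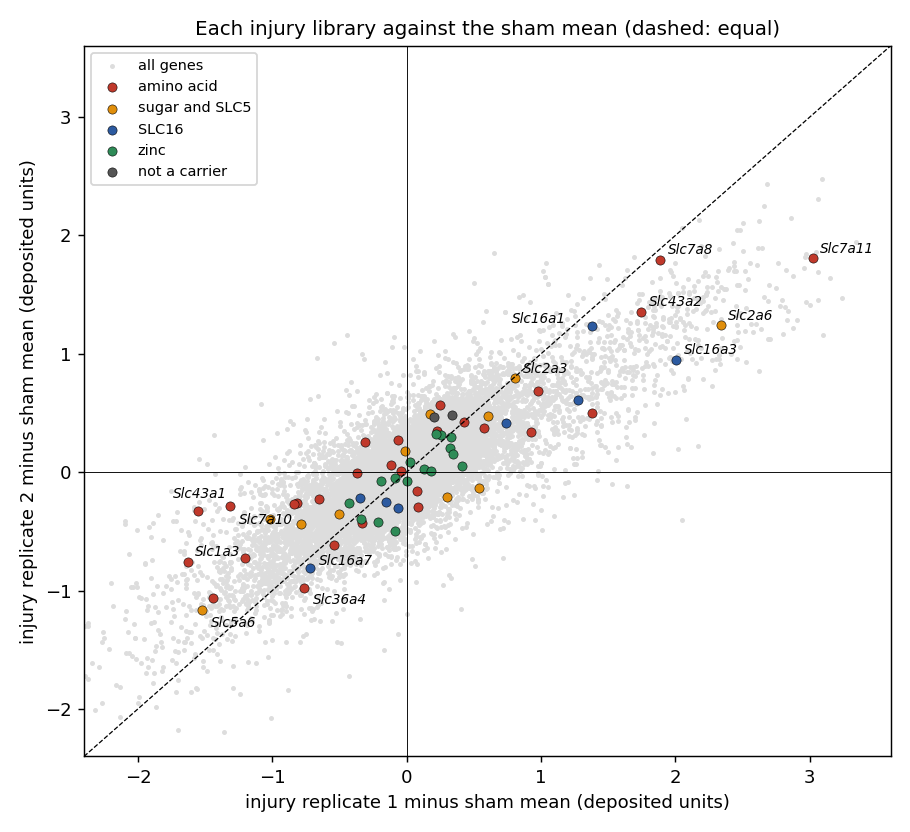
Each gene's value in injury replicate 1 (horizontal axis) and injury replicate 2 (vertical axis) minus the sham mean, in deposited units, with all genes in grey, solute carriers coloured by family and a dashed line of equality. *Slc7a8* and *Slc16a1* lie near the line, while *Slc7a11*, *Slc2a6*, *Slc16a3*, *Slc43a1* and *Slc1a3* lie further from 0 in replicate 1, and 32 genes lie outside the axes.

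The calls of the members depended on which libraries were used. Of the 8 called members, *Slc2a3*, *Slc36a4* and *Slc16a7* lost their call without injury replicate 1. Their differences were then 0.79, -0.98 and -0.81. Without injury replicate 2, 19 members were called, 7 of the 8 among them, and over all genes 1790 of 12661 were called in place of 941. The other 12 were *Slc7a5*, *Slc7a7*, *Slc7a10*, *Slc43a1*, *Slc1a3*, *Slc1a5*, *Slc6a9*, *Slc6a17*, *Slc2a6*, *Slc2a13*, *Slc16a3* and *Slc16a6*, with adjusted p between 0.0076 and 0.0498. Without sham replicate 1 or sham replicate 2 every member lost its call, and genes outside the families lost their calls as well. The median difference of the 5 members called higher was then 1.64 and 1.46, and that of the 3 called lower -0.93 and -0.87. In each of these fits the group left with 1 library was assumed to vary like the other.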

How the data were processed

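Poly(A) RNA of 2 sham and 2 injury PVAT libraries was sequenced. Per the labels, the authors used FastQC 0.11.8, cutadapt 1.18, Trimmomatic 0.39, STAR 2.6.0a, featureCounts, DESeq2 1.28.0 and R 3.6.0 with build mm9. The deposited values are a signed score for each gene and library, whose log base and centring are not given in the sources used here, so the counts and depth behind them are unknown and the test planned for log-like values was used.

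Groups were compared with limma 3.58.1 (group only, no trend, residual degrees of freedom 2, prior 3.48) in R 4.3.3, with Benjamini-Hochberg adjustment over all 12661 genes and no filter, after a test on simulated data. Alternatives were the replicate block, each library left out, quantile normalization, spread scaling, a robust prior, identical rows taken 1 time and a threshold of 0.1. All 4 values are given for called members, for the 3 highest and 3 lowest of each family and for listed carriers, except for 1 member that is not reported here, and further members were named for their substrate after their values were seen. The members and lists were chosen with earlier results of these data known. *Irs2*, *Mt3*, *Camp* and *Ly6g*, 4 of 10 skeletal muscle markers and most lymphocyte and all epithelial markers were not analysed here. Marker levels could not check the tissue label, since the values are relative. Gene positions came from GENCODE on NCBIM37 (mm9), and promoters (47 of 63 carriers matched, 6 of 8 called) from RefSeq on GRCm38.p6.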

Additional observations from a re-analysis of the deposited data

How the results depend on the processing

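All alternatives were listed with the design. The replicate numbers did not pair the samples (correlation of same-numbered deviations -0.09, 2 pairs), and a fit with the replicate block called 684 genes instead of 941 and 6 members instead of 8, 5 of them shared, with 1 sugar and SLC5 carrier and 1 SLC16 carrier called (main count 2 in each). Under the block the adjusted p was 0.0571 for *Slc36a4*, 0.059 for *Slc2a3*, 0.0609 for *Slc16a7* and 0.0365 for *Slc6a17*. Leaving out each library in turn gave between 0 and 1790 genes called, between 0 and 19 members, between 0 and 12 amino acid carriers, between 0 and 4 sugar and SLC5 carriers and between 0 and 3 SLC16 carriers. The median difference then ran from -0.14 to 0.17 for sugar and SLC5 carriers and from 0.021 to 0.11 for zinc carriers. The difference of 12 of the 17 members with overlapping groups changed sign with a library left out. Of those chosen to be shown in every library, it ran from -0.14 to 0.54 for *Slc2a1*, from -0.063 to 0.0295 for *Slc38a2*, from -0.21 to 0.32 for *Slc39a8* and from -0.162 to 0.0758 for *Slc3a2*. A threshold of 0.1 called 2317 genes, 16 members, 8 amino acid, 4 sugar and SLC5 and 4 SLC16 carriers. One spread for all columns called 1087 genes, 11 members, 6 amino acid and 3 sugar and SLC5 carriers. Quantile normalization called 1061 genes and 7 members, with *Slc36a4* at an adjusted p of 0.0516. No zinc carrier was called in any limma fit, with 1 at an unadjusted p under 0.05 in the fit reported. Apart from fewer libraries and the other threshold, the cause of these changes was not tested. Depth is unknown and 2 libraries a group limit every comparison.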
